A study of Mus musculus with 4 samples.

Results

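The loci of 10 genes encoding alternative splicing regulators of striated muscle were examined in an ATAC-seq comparison of Carm1 mutant and wild-type mouse hearts. The genes were Rbm20, Rbm24, Mbnl1, Mbnl2, Celf1, Celf2, Rbfox1, Rbfox2, Qk and Ptbp1. A peak belonged to a locus where it overlapped the gene body or lay within 20 kb of either end of the gene. Measured values thus played no part in which peaks were taken for a gene. The genes themselves were chosen with earlier results of these data known. The rule took 332 of the 87948 peaks of the study, 286 of them overlapping a gene body and 46 outside it, and 45 peaks also fell under the same rule for a neighbouring gene. ATAC-seq measures open chromatin, here as reads per peak after a transposase has inserted sequencing adapters into accessible DNA. It does not measure the splicing or the expression of these genes.

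The study held 2 libraries from Carm1 mutant hearts and 2 from wild-type hearts, all at postnatal day 14 (P14). Carm1 encodes an arginine methyltransferase, also known as Prmt4, that modifies histones and other proteins, splicing factors among them. The labels gave neither the Carm1 allele, nor the part of the gene it alters, nor any cell type in which it acts, and the design text of the series uses the word neonatal for these hearts. They also did not say which animals or pools stood behind a replicate, so p-values measured only the spread between these libraries.

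Counts in peaks totalled 16740589 and 15945420 in the mutant libraries and 17508230 and 19091969 in the wild-type libraries. The peak at the lower-coordinate end of Carm1 had 91.4 and 95.5 CPM in the mutant and 90.1 and 89.5 CPM in the wild type (adjusted p = 0.839 by edgeR), where CPM is the count scaled to a common library size. That peak does not check the genotype labels, since the altered part of the gene was not given. The strongest peaks at the ends of 8 of 8 cardiomyocyte marker genes summed to 947 and 827 CPM in the mutant and 788 and 747 CPM in the wild type. Other cell types were also visible. Marker sums of 7 of 8 endothelial genes (Erg had no such peak) were 120 and 108 CPM in the mutant and 168 and 124 CPM in the wild type. Those of 7 of 7 fibroblast genes were 76.3 and 93.9 CPM against 77.1 and 84.8 CPM, and those of 6 of 6 mural genes 70.6 and 75.5 CPM against 58.7 and 62.2 CPM. Leukocyte genes had a peak in 2 of 6 cases (none at Ptprc, Csf1r, Adgre1 or Lyz2; 124 and 123 CPM in the mutant and 116 and 112 CPM in the wild type). Among Schwann and neuronal genes, Sox10 and Th had no such peak, and the 3 genes with one summed to 87.2 and 79.9 CPM in the mutant and 68.9 and 65.6 CPM in the wild type. Skeletal muscle genes had one in 3 of 6 cases (none at Myf5, Pax7 or Myh4; 25.4 and 25.1 CPM in the mutant and 19.7 and 20.3 CPM in the wild type). Except for fibroblasts, the 2 genotypes did not overlap in these sums, and the part of this in the differences reported here was not tested. How often sums of other genes separate in this way was not counted. Single peaks often did: the mutant libraries were both higher at 25.8% of all peaks and both lower at 25.7%. In bulk tissue, a change in the share of a cell type and a change in accessibility within its cells cannot be told apart.

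Alternative splicing regulators bind short sequence elements in introns and exons of pre-mRNA and promote or repress the use of nearby exons. In the heart after birth, a shift in their balance replaces fetal isoforms of sarcomere, calcium-handling and ion channel proteins with adult ones. RBM20 and RBM24 act chiefly in striated muscle. MBNL, CELF, RBFOX, QK and PTBP1 proteins act in many tissues and often regulate the same exons, MBNL and CELF proteins frequently in opposite directions.

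The RefSeq promoter table for GRCm38.p6 (the assembly of mm10), with 250 bases before to 50 bases after each start, listed 14 starts for 8 of the 10 genes and none for Rbm20 or Rbfox2. A peak overlapped 10 of these 14 windows (71.4%), compared with 45.0% of all 32851 listed windows. The 6 windows below are shown because they set open starts of these genes beside closed ones: capitals mark CG dinucleotides, each sequence runs 5′ to 3′ along the gene's own strand, and the name gives the location and strand.
Mbnl1 chr3:60500929-60501228 (+ strand, peak): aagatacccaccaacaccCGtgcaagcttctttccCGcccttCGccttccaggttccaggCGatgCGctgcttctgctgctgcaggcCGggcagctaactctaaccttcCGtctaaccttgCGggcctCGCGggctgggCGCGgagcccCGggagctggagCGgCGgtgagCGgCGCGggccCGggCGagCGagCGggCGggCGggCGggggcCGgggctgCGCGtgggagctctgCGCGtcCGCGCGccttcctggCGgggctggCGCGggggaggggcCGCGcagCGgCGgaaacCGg
Mbnl1 chr3:60472580-60472879 (+ strand, no peak): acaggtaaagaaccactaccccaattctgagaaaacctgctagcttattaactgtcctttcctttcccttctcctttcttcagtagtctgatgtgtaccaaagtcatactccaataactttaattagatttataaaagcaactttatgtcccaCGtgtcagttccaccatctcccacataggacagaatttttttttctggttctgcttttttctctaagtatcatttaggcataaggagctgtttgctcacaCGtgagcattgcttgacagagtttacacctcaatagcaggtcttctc
Celf2 chr2:6871986-6872285 (- strand, peak): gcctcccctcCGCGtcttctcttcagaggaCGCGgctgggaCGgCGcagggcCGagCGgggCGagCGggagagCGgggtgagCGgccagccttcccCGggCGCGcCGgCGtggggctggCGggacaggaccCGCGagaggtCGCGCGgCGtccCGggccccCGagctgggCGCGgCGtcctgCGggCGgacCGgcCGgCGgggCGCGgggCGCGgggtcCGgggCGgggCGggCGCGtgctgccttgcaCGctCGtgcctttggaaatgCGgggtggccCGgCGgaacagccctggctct
Celf2 chr2:7081253-7081552 (- strand, peak): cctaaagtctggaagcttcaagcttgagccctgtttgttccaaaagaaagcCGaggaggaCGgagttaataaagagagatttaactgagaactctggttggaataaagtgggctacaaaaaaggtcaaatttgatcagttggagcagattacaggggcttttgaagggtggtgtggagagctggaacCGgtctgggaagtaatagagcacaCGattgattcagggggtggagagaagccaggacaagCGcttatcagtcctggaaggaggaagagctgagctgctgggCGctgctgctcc
Celf2 chr2:7396149-7396448 (- strand, no peak): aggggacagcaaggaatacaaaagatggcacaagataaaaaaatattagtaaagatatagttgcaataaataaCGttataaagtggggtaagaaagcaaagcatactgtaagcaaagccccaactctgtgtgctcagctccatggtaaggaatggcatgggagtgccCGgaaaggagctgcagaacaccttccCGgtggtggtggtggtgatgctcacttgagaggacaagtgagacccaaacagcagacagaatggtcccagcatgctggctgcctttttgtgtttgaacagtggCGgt
Qk chr17:10319312-10319611 (- strand, peak): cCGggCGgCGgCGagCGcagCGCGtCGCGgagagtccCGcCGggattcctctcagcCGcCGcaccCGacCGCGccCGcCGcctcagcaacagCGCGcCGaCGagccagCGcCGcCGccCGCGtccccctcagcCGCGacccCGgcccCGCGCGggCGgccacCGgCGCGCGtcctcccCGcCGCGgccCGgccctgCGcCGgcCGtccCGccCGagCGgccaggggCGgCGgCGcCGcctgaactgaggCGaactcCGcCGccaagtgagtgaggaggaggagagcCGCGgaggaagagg

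The Mbnl1 start at chr3:60500929-60501228, under a peak, held 41 CG dinucleotides and 75% G or C, and the other Mbnl1 start at chr3:60472580-60472879, with no peak, held 2 CG and 39.3%. The Celf2 start at chr2:6871986-6872285 held 48 CG and 80.3% under a peak, and the one at chr2:7396149-7396448 held 4 CG and 46.7% without one. The open Celf2 start at chr2:7081253-7081552 had 6 CG and 49.3%, so not every open start was rich in CG. The Qk start held 57 CG and 81.7%. Over the members, windows under a peak held a median of 20 CG and windows without one a median of 3.5. The medians over all listed starts were 20 (n = 14776) and 3 (n = 18075). The windows were also searched on both strands for 4 letter patterns of factors active in heart. The AP-1 pattern TGANTCA occurred in 1 of 14 member windows, that of Celf2 at chr2:7081253-7081552, and in 7.81% of all listed windows. The GATA pattern AGATAA and the TEAD pattern GGAATG each occurred in 1 of 14, both in Celf2 at chr2:7396149-7396448, and in 11.2% and 14.7% of all. A MEF2 pattern, CTA and TAG set 4 bases apart, was in 0 of 14 and in 3.69% of all. A match describes letters in these windows and not a bound site.

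Most peaks of the splicing regulator loci did not pass the test, and those that did were mainly higher in the mutant. With edgeR's quasi-likelihood test and a Benjamini-Hochberg adjusted p under 0.05 over all peaks, 16 of the 332 peaks were higher in mutant hearts, 3 were lower and 313 did not pass. The 19 called peaks were 5.72% of the members, close to the 5.5% called among all peaks. By direction the shares were 4.82% higher and 0.904% lower for the members and 3.05% higher and 2.45% lower for all peaks. The median log2 fold change, mutant over wild type, was 0.02 over the members (quartiles -0.29 and 0.38) and 0.00 over all peaks. With scaling by total counts the median was -0.02 over the members and -0.04 over all peaks. The median of each of the 10 genes kept its sign with RLE and total-count scaling. Both mutant libraries lay above both wild-type libraries at 101 member peaks (30.4%, compared with 25.8% of all peaks) and below them at 83 (25%, compared with 25.7%). The log2 fold change was above 0 at 173 member peaks (52.1%, compared with 49.9% of all peaks).

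Called peaks were more frequent outside the gene bodies. Of the 46 peaks outside their own gene's body, 8 were called (17.4%), all of them higher in the mutant. Since 4 of the 46 lay in the body of another gene, the like set is the other 42, of which the same 8 were called (19%), compared with 5.61% of the 13442 peaks of the table that lay outside every protein-coding gene body but within 20 kb of one, where 3.97% were higher. The 8 were 4 peaks of Qk, 2 of Rbfox2, 1 of Rbm20 and 1 of Mbnl1. Within gene bodies 11 of 286 peaks were called (3.85%), compared with 4.71% of all 58591 gene-body peaks. The median log2 fold change was 0.42 outside and -0.02 within. Peaks of a locus are not independent of each other, and the difference between the 2 positions was not tested.

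**Figure D1:**
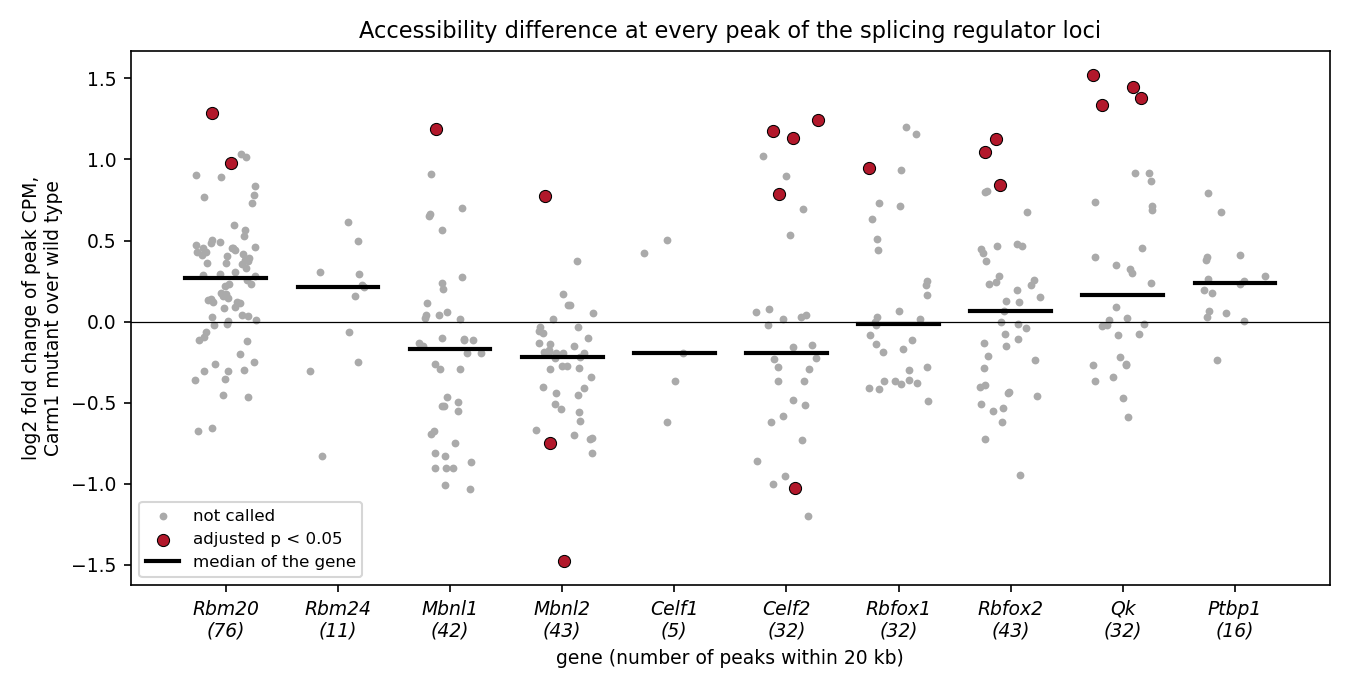
The log2 fold change of CPM (mutant over wild type) is plotted for every peak of each gene, with a bar at the gene's median and called peaks in red; the number of peaks stands under each name. The peaks of Rbm20 lay mostly above 0 (58 of 76) and those of Mbnl2 mostly below it (36 of 43), while few points of either gene were called. Among all peaks of the study, 49.9% lay above 0.

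The calls rested on few libraries. Of the 19, 14 remained without mutant library 1, 17 without mutant library 2, 9 without wild-type library 1 and 1 without wild-type library 2, and all 19 kept their sign each time. With a library left out, the lone library of that genotype is assumed to vary like the pair of the other, and the share called among all peaks moved as well, to 7.89%, 9.6%, 2.17% and 1.14% in the same order. DESeq2 called 12 of the 19 and limma voom 16. Only the strongest peak downstream of Qk was called whichever library was left out.

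**Figure D2:**
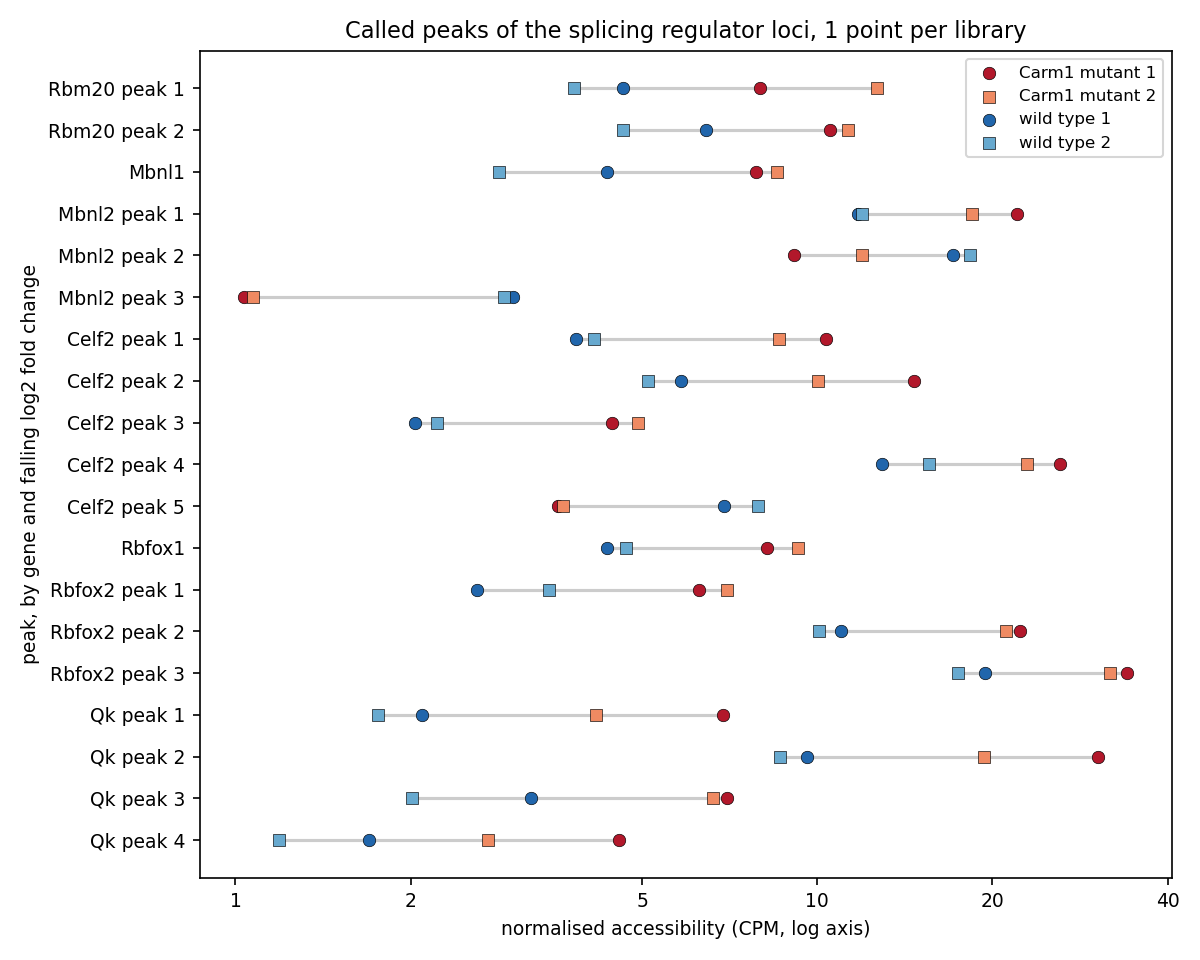
CPM on a log axis at the 19 called peaks, 1 point per library, ordered by gene and then by falling log2 fold change. The mutant and wild-type points did not overlap at any of them; in 16 rows the mutant lies to the right, and in Mbnl2 peaks 2 and 3 and Celf2 peak 5 it lies to the left.

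Rbm20 encodes the splicing repressor that sets the length of titin in cardiomyocytes. Its locus (gene ID 73713, chr19:53660989-53867083) carried the most peaks of the 10, 76, or 30.9 per 100 kb. At 58 of them the log2 fold change was above 0, with a median of 0.27, but only 2 rose beyond the threshold and 0 fell. Over all peaks of the study, 49.9% had a log2 fold change above 0. A peak within the gene at chr19:53731790-53732539 had 7.97 and 12.7 CPM in the mutant and 4.64 and 3.82 CPM in the wild type, a log2 fold change of 1.29 (SE 0.28, adjusted p = 0.0110 by edgeR). Both mutant libraries were higher, mutant 2 the more so. A peak 1193 bp above the upper gene end, at chr19:53868276-53869484 and also near Gm30990, had 10.5 and 11.3 CPM in the mutant and 6.45 and 4.64 CPM in the wild type (log2 fold change 0.98, SE 0.25, adjusted p = 0.0271). The call within the gene was lost without wild-type library 2 (adjusted p = 0.0993), as was that above it (0.285).

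The highest Rbm20 peak spanned 4625 bp within the gene (chr19:53790847-53795472), with 92.4 and 71.2 CPM in the mutant and 67 and 60.3 CPM in the wild type. The genotypes did not overlap there, yet the difference was small and not called (log2 fold change 0.36, SE 0.14, adjusted p = 0.144 by edgeR). Without mutant library 2 it passed (adjusted p = 0.00174). The 2 mutant libraries differed at this locus: 13 Rbm20 peaks were called higher without mutant library 2, and 3 without mutant library 1.

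Rbm24 encodes an RNA-binding protein of striated muscle that promotes the inclusion of muscle exons. None of its 11 peaks was called (gene ID 666794, chr13:46418102-46431099, + strand), with edgeR, DESeq2 or limma voom. At an unadjusted p under 0.05, edgeR counted 2 higher and 1 lower, DESeq2 0 of each and limma voom 2 higher and 0 lower. The share of all peaks at that unadjusted level was not counted, so these counts and like ones below have no background. The start peak at chr13:46417728-46418865 had 26.1 and 22.4 CPM in the mutant and 19.6 and 22.2 CPM in the wild type (log2 fold change 0.22, SE 0.17, adjusted p = 0.513 by edgeR). The highest peak, within the gene at chr13:46426196-46427334, had 53.3 and 51.2 CPM in the mutant and 43.5 and 41.1 CPM in the wild type (0.30, SE 0.14, adjusted p = 0.212). The smallest p belonged to chr13:46421797-46422686, with 9.0 and 7.19 CPM in the mutant and 4.19 and 6.35 CPM in the wild type (0.62, SE 0.27, adjusted p = 0.190). At these 3 peaks the mutant libraries were both above both wild-type libraries. Of all 11 Rbm24 peaks, 5 separated in that direction and 3 in the other, compared with 25.8% and 25.7% of all peaks. Without mutant library 2, 1 Rbm24 peak passed, in the higher direction.

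Mbnl1 and Mbnl2 encode the muscleblind proteins, which drive the postnatal splicing shift and are sequestered by repeat RNA in myotonic dystrophy. Both loci leaned lower in the mutant, with few calls. At Mbnl1 (gene ID 56758, chr3:60472559-60629750, + strand), 27 of 42 peaks had a negative log2 fold change (median -0.17). Both mutant libraries lay below both wild-type libraries at 18 and above them at 8, compared with 25.7% and 25.8% of all peaks. Among all peaks, 49.9% had a positive log2 fold change. With edgeR, 11 Mbnl1 peaks were lower and 3 higher at an unadjusted p under 0.05, a level whose share over all peaks was uncounted. None of the 11 lower ones passed adjustment. The single Mbnl1 call went the other way. It lay 18594 bp downstream, at chr3:60648344-60648825, with 7.85 and 8.52 CPM in the mutant and 4.36 and 2.84 CPM in the wild type (log2 fold change 1.19, SE 0.28, adjusted p = 0.0188), and was lost without wild-type library 2 (adjusted p = 0.225). The highest Mbnl1 peak covered the CG-rich start shown above (chr3:60500402-60502103). It had 50.9 and 44.0 CPM in the mutant and 47.8 and 44.6 CPM in the wild type, so the genotypes overlapped (0.04, SE 0.14, adjusted p = 0.915).

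All 43 Mbnl2 peaks lay in the gene body (gene ID 105559, chr14:120275652-120431698, + strand). Of these, 36 had a negative log2 fold change (median -0.22), and the genotypes were fully separated at 22 of the 43 in that direction and at 3 in the other. Over all peaks, 25.7% separated with the mutant lower, 25.8% with it higher, and 49.9% had a positive log2 fold change. At chr14:120379370-120380167 the mutant had 9.12 and 11.9 CPM and the wild type 17.1 and 18.3 CPM, a log2 fold change of -0.75 (SE 0.21, adjusted p = 0.0388 by edgeR). A weak peak at chr14:120319385-120319681 held 17 reads in each mutant library and 53 and 56 reads in the wild-type libraries, or 1.03 and 1.07 CPM against 3.0 and 2.89 CPM (-1.48, SE 0.40, adjusted p = 0.0332). Both peaks were lower in both mutant libraries, and neither passed with DESeq2 (adjusted p = 0.0648 and 0.135); the weak one also missed with limma voom (0.0603). Another peak rose, at chr14:120355069-120355977, with 22.0 and 18.4 CPM in the mutant and 11.8 and 11.9 CPM in the wild type (0.77, SE 0.19, adjusted p = 0.0248). None of the 3 calls held without mutant library 1 (adjusted p = 0.109, 0.0507 and 0.0613 in the order given), without wild-type library 1 (0.146, 0.156 and 0.159) or without wild-type library 2 (0.260, 0.171 and 0.175). The highest Mbnl2 peak, just inside the start at chr14:120276339-120279354, had 62.1 and 52.2 CPM in the mutant and 63.1 and 77.0 CPM in the wild type (-0.29, SE 0.14, adjusted p = 0.242). It passed without mutant library 1 (adjusted p = 0.0362).

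Celf1 and Celf2 encode CUG-binding proteins, often antagonists of the muscleblind proteins, whose levels fall in the heart after birth. Celf1 (gene ID 13046, chr2:90940259-91019497, + strand) had only 5 peaks and none was called with edgeR, DESeq2 or limma voom. At an unadjusted p under 0.05, each of these tools counted 0 higher and 1 lower at Celf1, with the share over all peaks not counted. The peak over its start, at chr2:90939835-90941561, had 31.5 and 23.7 CPM in the mutant and 34.6 and 28.7 CPM in the wild type (log2 fold change -0.20, SE 0.17, adjusted p = 0.555 by edgeR), with overlap. A peak within the gene, at chr2:90964722-90966160, stood just short of the threshold, with 13.4 and 13.6 CPM in the mutant and 20.7 and 20.8 CPM in the wild type (-0.62, SE 0.19, adjusted p = 0.0537). It passed without mutant library 2 (adjusted p = 0.0389) and with scaling by total counts (0.0405). Without mutant library 2, 1 other Celf1 peak was called, in the higher direction.

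Celf2 (gene ID 14007, chr2:6539694-7396341, - strand) held 32 peaks over 857 kb, 4 of them higher and 1 lower in the mutant, while the median log2 fold change was -0.19. The largest rise was at chr2:6815241-6815630, with 10.3 and 8.58 CPM in the mutant and 3.85 and 4.13 CPM in the wild type (log2 fold change 1.24, SE 0.26, adjusted p = 0.00942 by edgeR). Towards the upper gene end, chr2:7377849-7378402 had 14.7 and 10.03 CPM in the mutant and 5.83 and 5.11 CPM in the wild type (1.18, SE 0.25, adjusted p = 0.0110). The strongest of the 5, at chr2:7088929-7089916, had 26.1 and 23.0 CPM in the mutant and 12.9 and 15.5 CPM in the wild type (0.79, SE 0.19, adjusted p = 0.0178). At these 3 peaks both mutant libraries lay above both wild-type libraries. A weaker one, at chr2:7346880-7347382, had 4.44 and 4.92 CPM in the mutant and 2.04 and 2.22 CPM in the wild type (1.13, SE 0.33, adjusted p = 0.0460). The single lower peak, at chr2:6927679-6928371, had 3.59 and 3.66 CPM in the mutant and 6.90 and 7.90 CPM in the wild type (-1.03, SE 0.27, adjusted p = 0.0324).

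The 5 Celf2 calls were all lost without wild-type library 2, with adjusted p of 0.0594, 0.1001, 0.0775, 0.195 and 0.240 in the order given. Without wild-type library 1 the first, the third, the fourth and the fifth were lost (0.0630, 0.206, 0.212 and 0.0956), and without mutant library 2 the fourth (0.0759). The fourth also missed with DESeq2 (0.135), limma voom (0.0572), scaling by total counts (0.0525) and a minimum mean of 2 CPM (0.0518), and the fifth with DESeq2 (0.0777). The highest Celf2 peak covered the open start with 6 CG at chr2:7080666-7081785, with 25.6 and 17.7 CPM in the mutant and 19.6 and 21.5 CPM in the wild type (log2 fold change 0.07, SE 0.19, adjusted p = 0.867 by edgeR). Mutant 1 was the highest and mutant 2 the lowest of the 4 libraries.

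Rbfox1 and Rbfox2 encode proteins that bind GCAUG elements and regulate muscle and neuronal exons. Rbfox1 (gene ID 268859, chr16:5884793-7412480, + strand) is the longest of the 10 genes, at 1528 kb, and had 32 peaks, or 2.04 per 100 kb. Only 1 was called, higher in the mutant: chr16:7279539-7280080 had 8.21 and 9.28 CPM in the mutant and 4.36 and 4.70 CPM in the wild type (log2 fold change 0.95, SE 0.26, adjusted p = 0.0352 by edgeR). This call was lost without mutant library 2 (adjusted p = 0.0602), without wild-type library 1 (0.188), without wild-type library 2 (0.163) and with DESeq2 (0.0753). The highest Rbfox1 peak, at chr16:7099098-7100459, had 47.8 and 34.2 CPM in the mutant and 50.6 and 58.6 CPM in the wild type (-0.41, SE 0.16, adjusted p = 0.138). It fell beyond the threshold without mutant library 1 (log2 fold change -0.68, adjusted p = 0.000558). The peak at the inner listed start (chr16:7069580-7070108) had 10.1 and 6.37 CPM in the mutant and 8.77 and 8.0 CPM in the wild type (-0.02, SE 0.26, adjusted p = 0.972), and the outer start, at the gene's lower end, had no peak.

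Rbfox2 (gene ID 93686, chr15:77078990-77308434) had 43 peaks, 3 of them higher and 0 lower in the mutant, with a median log2 fold change of 0.06. Within the gene, chr15:77214337-77215929 had 34.1 and 31.9 CPM in the mutant and 19.4 and 17.4 CPM in the wild type (log2 fold change 0.84, SE 0.17, adjusted p = 0.00669 by edgeR). This was the strongest called peak of the 10 loci. The other 2 lay below the lower gene end. At chr15:77068428-77069381, 9609 bp away, the mutant had 22.3 and 21.1 CPM and the wild type 11.0 and 10.1 CPM (1.05, SE 0.19, adjusted p = 0.00426). At chr15:77076665-77077324, 1666 bp away, the mutant had 6.27 and 7.0 CPM and the wild type 2.60 and 3.46 CPM (1.13, SE 0.29, adjusted p = 0.0294). Each rose in both mutant libraries with little spread between them. Both peaks also lie within 20 kb of Apol6, and the first also of Mb, the myoglobin gene of heart and oxidative muscle, so position does not tie them to a single gene. Without wild-type library 2 none of the 3 passed (adjusted p = 0.124, 0.0686 and 0.0833 in the order given), and the third was also lost without wild-type library 1 (0.212) and with DESeq2 (0.0695). The highest Rbfox2 peak, at the upper gene end (chr15:77305639-77307502), had 62.4 and 60.6 CPM in the mutant and 63.2 and 61.3 CPM in the wild type (-0.02, SE 0.13, adjusted p = 0.963).

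Qk encodes quaking, a STAR-family RNA-binding protein that regulates muscle and vascular exons. The Qk locus (gene ID 19317, chr17:10206471-10319361, - strand) carried the densest group of higher peaks. All 4 of its calls lay downstream of the gene within a span of 6.69 kb, where 4 of 6 peaks rose in the mutant. The strongest, 7035 bp downstream at chr17:10197865-10199436, had 30.4 and 19.4 CPM in the mutant and 9.62 and 8.62 CPM in the wild type. Both mutant libraries lay well above both wild-type libraries, mutant 1 the more so, and the log2 fold change was 1.45 (SE 0.22, adjusted p = 0.00124 by edgeR), or a fold of 2.73. Leaving out each library in turn left the adjusted p at 0.0114 or below.

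The other 3 Qk calls were weaker peaks around it. The one 3294 bp downstream, at chr17:10202613-10203177, had 6.87 and 4.16 CPM in the mutant and 2.09 and 1.75 CPM in the wild type (log2 fold change 1.52, SE 0.34, adjusted p = 0.0140 by edgeR). The one at chr17:10196485-10196956 had 7.0 and 6.63 CPM in the mutant and 3.23 and 2.01 CPM in the wild type (1.38, SE 0.31, adjusted p = 0.0133). The one at chr17:10200858-10201262 had 4.56 and 2.71 CPM in the mutant and 1.70 and 1.19 CPM in the wild type (1.34, SE 0.39, adjusted p = 0.0494). All 3 were lost without wild-type library 2 (adjusted p = 0.108, 0.169 and 0.311 in the order given). The first was also lost without mutant library 1 (0.0757), and the third without mutant library 1 (0.223), without wild-type library 1 (0.0925), with DESeq2 (0.156), with limma voom (0.0726), with scaling by total counts (0.0542) and with a minimum mean of 2 CPM (0.0554).

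Summed over the 4 called peaks of the span, CPM was 48.8 and 32.9 in the mutant and 16.6 and 13.6 in the wild type. These peaks were picked for being higher, so the sum restates their calls and leaves out the uncalled peaks of the span. Of all 11 downstream Qk peaks, 10 had a positive log2 fold change (median 0.92) and 7 separated the genotypes fully, with the mutant higher. Over all peaks, 49.9% were positive and 25.8% separated in that direction. The 17 Qk peaks within the gene had a median of -0.08 and 0 calls. The peak over the CG-rich Qk start (chr17:10319304-10320826) had 36.8 and 28 CPM in the mutant and 31.2 and 32.7 CPM in the wild type (0.02, SE 0.16, adjusted p = 0.961 by edgeR). The highest Qk peak, upstream at chr17:10326005-10327456, had 44.8 and 41.5 CPM in the mutant and 44.5 and 42.9 CPM in the wild type (-0.02). Both of these also fell to Gm46608 by the rule, and at neither were the genotypes separated.

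**Figure D3:**
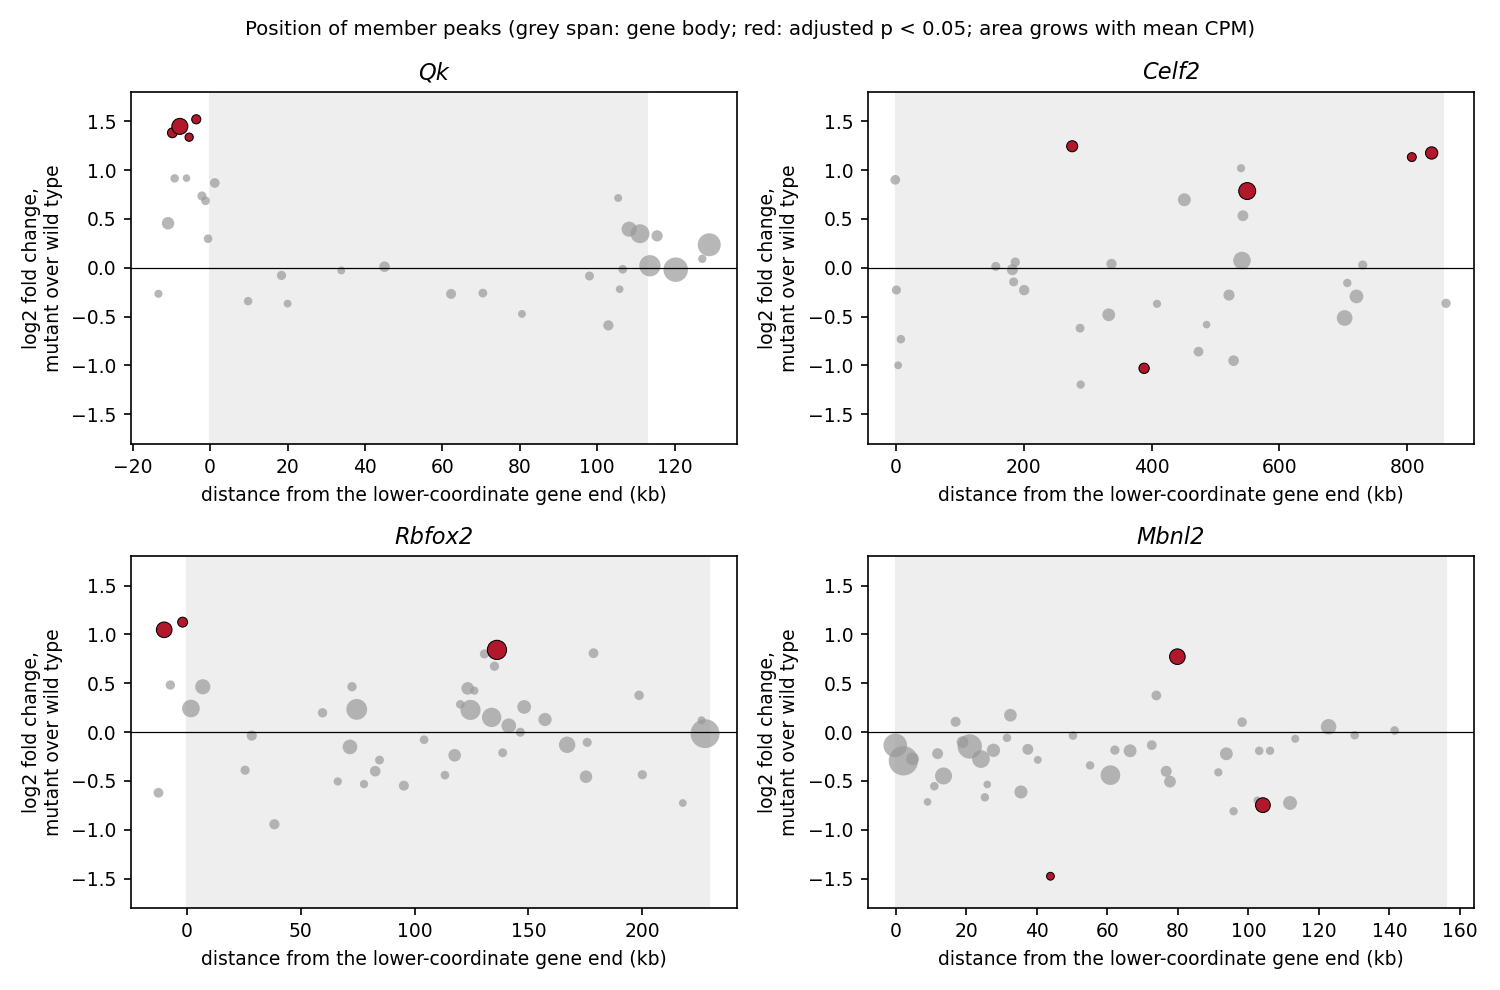
The log2 fold change (mutant over wild type) of each peak is plotted against its distance from the lower-coordinate gene end in kb for Qk, Celf2, Rbfox2 and Mbnl2, with the gene body in grey, called peaks in red and the area of a point growing with its mean CPM. The 4 red points of Qk stand together to the left of the gene body, which is downstream of this gene on the - strand, whereas those of Celf2 are spread along the gene.

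Ptbp1 encodes the polypyrimidine tract binding protein, a repressor of muscle and neuronal exons whose level falls as muscle differentiates. Its gene is short (gene ID 19205, chr10:79854432-79864435, + strand), and all 16 of its peaks also fell under the rule for neighbours such as Plppr3, Prtn3 and Elane. The log2 fold change was positive at 15 of 16 (median 0.24, and 13 of 16 with scaling by total counts). Both mutant libraries were above both wild-type libraries at 9. Over all peaks, 49.9% were positive and 25.8% separated in that direction. None of the 16 Ptbp1 peaks passed with edgeR, DESeq2 or limma voom. At an unadjusted p under 0.05 edgeR and limma voom each counted 2 higher and 0 lower, and DESeq2 1 higher. The share of all peaks at that unadjusted level was not counted. The peak over the Ptbp1 start (chr10:79852881-79855411) was the strongest of all member peaks, with 102.9 and 110.0 CPM in the mutant and 91.2 and 97.6 CPM in the wild type (0.17, SE 0.12, adjusted p = 0.447 by edgeR). The smallest p was at chr10:79840381-79840734, with 4.2 and 5.74 CPM in the mutant and 2.83 and 2.89 CPM in the wild type (0.79, SE 0.31, adjusted p = 0.140).

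No peak over a listed start passed the test. Of the 10 member peaks that overlapped a start window, 0 were called with edgeR, DESeq2 or limma voom, compared with 1.41% of the 11375 peaks over any listed start. At an unadjusted p under 0.05 DESeq2 counted 0, and the share over all start peaks was not counted. With edgeR and limma voom the counts were 0 higher and 1 lower. That peak lay at the CG-rich Celf2 start shown above (chr2:6872175-6873072), with 9.12 and 7.45 CPM in the mutant and 12.1 and 11.0 CPM in the wild type (log2 fold change -0.48, SE 0.23, adjusted p = 0.224 by edgeR). The log2 fold changes at the other 9 lay between -0.20 and 0.22.

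**Figure D4:**
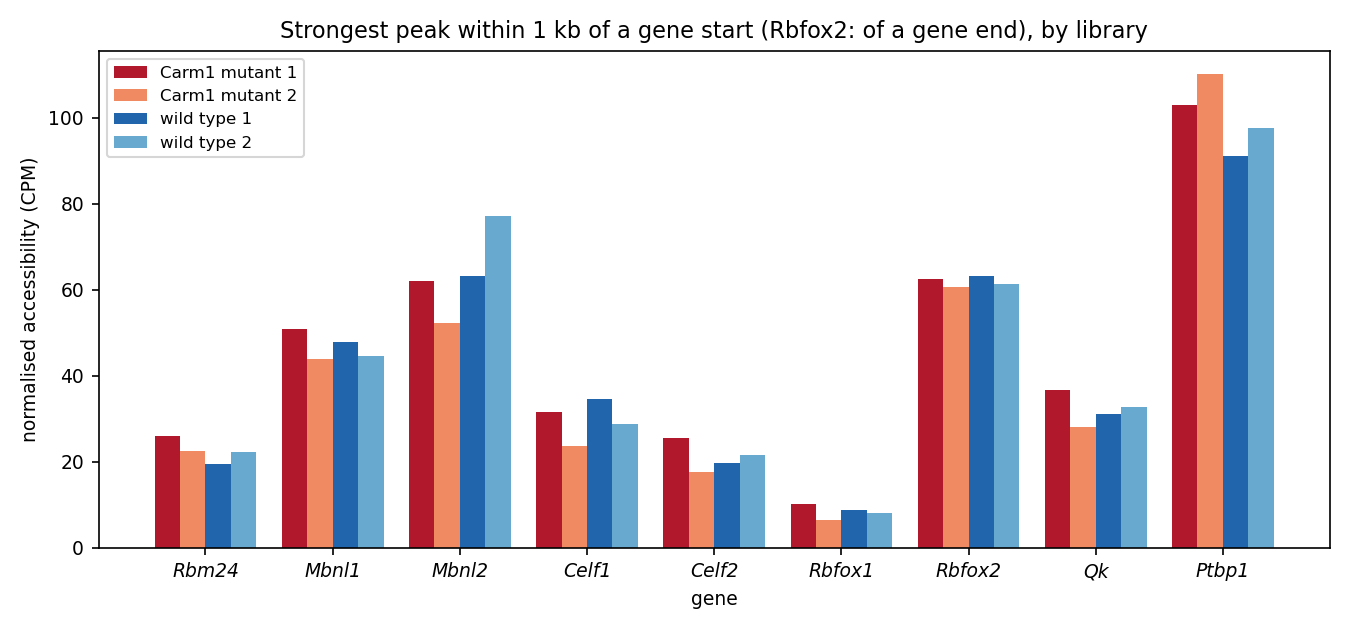
CPM per library of the strongest peak within 1 kb of a start for each gene, and within 1 kb of a gene end for Rbfox2; Rbm20 had no peak within 1 kb of either end. The bars of Ptbp1 are the tallest, at 102.9 and 110.0 CPM in the mutant and 91.2 and 97.6 CPM in the wild type. None of these peaks was called by edgeR. The log2 fold change farthest from 0 among them is -0.29, at Mbnl2, whose mutant bars are lower than those of the wild type.

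Counts were also summed over all peaks of a locus, which gives 1 value per gene and library, in CPM of all such sums. None of the 10 loci passed with edgeR or limma voom, compared with 2.65% of all 16979 protein-coding loci with edgeR (1.63% higher and 1.02% lower). DESeq2 called 1, Mbnl2. At an unadjusted p under 0.05, edgeR and limma voom each counted 1 higher and 1 lower. The share of all loci at that unadjusted level was not counted. The Mbnl2 locus had 242 and 255 CPM in the mutant and 295 and 303 CPM in the wild type, both mutant libraries lower. Its log2 fold change was -0.26 (SE 0.08, adjusted p = 0.0823 by edgeR), and the call was made with DESeq2 (adjusted p = 0.0304) and with scaling by total counts (0.0454). The Mbnl1 locus had 160 and 151 CPM in the mutant and 174 in each wild-type library (-0.16, SE 0.08, adjusted p = 0.298), and the Celf1 locus 48.2 and 41.9 CPM against 53.8 and 50.03 CPM (-0.20, SE 0.11, adjusted p = 0.341). The genotypes did not overlap at these 3 loci, and the mutant was lower at each. The share of all loci without overlap was not counted, so this separation has no background to be read against. Among single peaks such separation was common, at 25.8% of all peaks with the mutant above and 25.7% with it below.

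The Qk locus had 204 and 157 CPM in the mutant and 158 and 148 CPM in the wild type (log2 fold change 0.24, SE 0.10, adjusted p = 0.236 by edgeR), and it passed without mutant library 2 (0.42, adjusted p = 0.0129). Mutant 1 stood apart there, whereas mutant 2 was level with wild type 1. The Rbm20 locus, with the largest sum of the 10 over the largest number of peaks, had 630 and 519 CPM in the mutant and 552 and 489 CPM in the wild type (0.14, SE 0.10, adjusted p = 0.494), with overlap. The Ptbp1 locus had 137 and 155 CPM against 134 and 128 CPM (0.16, adjusted p = 0.357). The Rbfox2 locus had 275 and 280 CPM against 261 and 251 CPM (0.12, adjusted p = 0.484), and the Rbm24 locus 136 and 123 CPM against 120 and 119 CPM (0.12, adjusted p = 0.485). The mutant was higher without overlap at these last 3, by less than the test could call, and again the share over all loci was not counted. Rbfox1 (144 and 125 CPM in the mutant, 138 and 146 CPM in the wild type; -0.08, adjusted p = 0.704) and Celf2 (131 and 124 CPM in the mutant, 125 and 130 CPM in the wild type; 0.00, adjusted p = 0.995) overlapped.

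**Figure D5:**
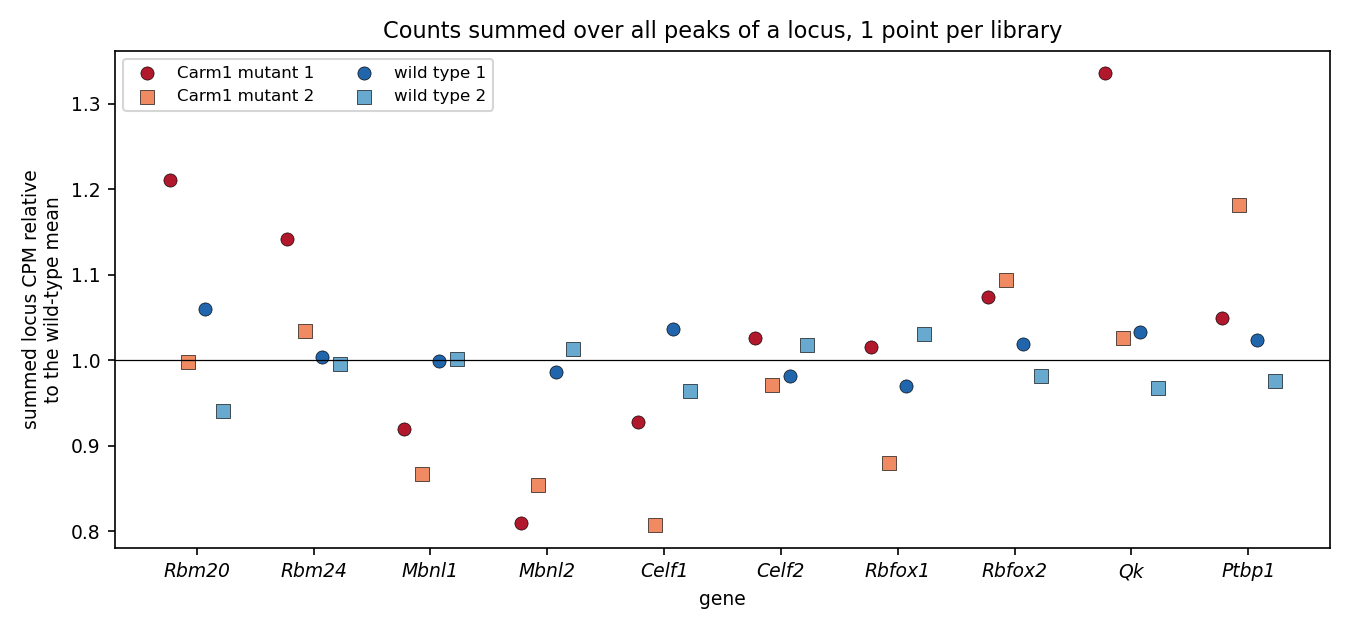
Summed CPM of each locus relative to its wild-type mean (linear axis, not starting at 0), 1 point per library. Both mutant points of Mbnl2, at 242 and 255 CPM before division, lie below both wild-type points, at 295 and 303 CPM, and at Qk mutant 1 alone is high.

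Peaks lay close to the 20 kb margin on both sides. The Mbnl1 call lay 1406 bp inside it, and the outermost Ptbp1 peak, 247 bp inside, had 6.39 and 5.74 CPM in the mutant and 4.81 and 5.52 CPM in the wild type. The nearest peaks left out were 1945 bp beyond the margin of Celf1 (chr2:90917200-90918314; 26.9 and 18.6 CPM in the mutant, 17.9 and 17.4 CPM in the wild type) and 2016 bp beyond that of Rbm20 (chr19:53638758-53638973; 2.86 and 2.21 CPM in the mutant, 2.43 and 1.91 CPM in the wild type).

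The same rule was applied to 17 paralogs and partners of the 10 genes, such as Mbnl3, the other Celf genes, Ptbp2 and the Rbpms genes. Of these, 16 had a peak, and of their 202 peaks 7 rose and 2 fell in the mutant (median log2 fold change 0.08). The share called was 4.46%, below the 5.5% of all peaks. By direction, 3.47% were higher and 0.99% lower, against 3.05% and 2.45% of all peaks. The smallest p-values belonged to Rbpms2, Rbpms and Celf4. Rbpms2 encodes an RNA-binding protein of muscle, and its peak at chr9:65672896-65673384 had 13.6 and 14.9 CPM in the mutant and 6.34 and 7.79 CPM in the wild type (1.01, SE 0.23, adjusted p = 0.0138 by edgeR). Rbpms encodes its paralog, a splicing regulator of smooth muscle and heart. Its peak at chr8:33797970-33799206 had 18.1 and 17.5 CPM in the mutant and 10.2 and 8.98 CPM in the wild type (0.89, SE 0.20, adjusted p = 0.0153). A Celf4 peak had 6.87 and 9.09 CPM in the mutant and 2.72 and 4.28 CPM in the wild type (1.18, SE 0.29, adjusted p = 0.0234). The groups did not overlap at any of the 3. Without wild-type library 1 all 3 were lost (adjusted p = 0.140, 0.0656 and 0.209 in the order given), and without wild-type library 2 Rbpms2 (0.0570) and Rbpms (0.179).

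Of 936 peaks at 35 genes whose transcripts these proteins are known to splice, 41 rose and 8 fell in the mutant (5.24%, compared with 5.5% of all peaks; median log2 fold change 0.06). The higher calls included 6 of 101 peaks at Ttn, the gene of titin, 6 of 35 at Myocd, a cardiac and smooth muscle coactivator gene, and 5 of 29 at Ldb3, a Z-disc gene. Cacna1c, an L-type calcium channel gene, had 3 of 96 lower and 0 higher. Pdlim3, a Z-disc gene, and Trdn, the triadin gene, were among the genes with the smallest p-values. The Pdlim3 peak at chr8:45901478-45902370 had 23.1 and 19.4 CPM in the mutant and 9.05 and 7.74 CPM in the wild type (1.34, SE 0.21, adjusted p = 0.00134 by edgeR). The Trdn peak at chr10:33253790-33254768 had 29.6 and 26.6 CPM in the mutant and 13.6 and 13.8 CPM in the wild type (1.04, SE 0.18, adjusted p = 0.00276). Both were called whichever library was left out.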

How the data were processed

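Open chromatin was profiled by ATAC-seq in 4 heart libraries. Per the submitters' processing notes, reads were checked with FastQC and aligned with Bowtie2 to mm10; not given in the sources used here were versions, the peak caller, duplicate handling, any shift for the transposase and the making of the common peak set, all of which affect the regions and reads counted. The authors deposited raw counts per peak for each library, whole numbers with no normalization, in 87948 peaks with a median width of 532 bp. Peak coordinates are printed as in that table, whose counting base is not stated.

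Genes and promoter sequences came from RefSeq tables of GRCm38.p6. The gene table has no strand or exons, so strand and starts were taken from the promoter table where listed, and exons, introns and UTRs were not assigned. The peak counts were fitted in edgeR 4.0.16 under R 4.3.3 (TMM scaling, filterByExpr, quasi-likelihood test with genotype as the only term and 2 residual degrees of freedom, Benjamini-Hochberg adjustment over all peaks, threshold 0.05). The filter removed 0 peaks. CPM values use TMM-scaled library sizes, a positive log2 fold change means higher in the mutant, and standard errors come from the test statistic. Locus sums were fitted in the same way over 16979 protein-coding genes, whose sums share peaks. The common biological coefficient of variation was 0.166 for peaks and 0.0826 for loci. Replicates were more variable than counting alone gives (chi-square over degrees of freedom 5.76 in the mutant and 4.09 in the wild type), so each counted as 1 replicate. With 2 libraries a genotype, an exact permutation test cannot go below 0.333 for a single value and was not used. The procedure was also run on counts simulated from its own fitted dispersion, with an outcome not reported here. Such counts follow the model's assumptions, so that run cannot speak to the dependence of calls on single libraries.

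Named peaks were, for each gene, every called peak, the peak with the highest mean CPM, the strongest within 1 kb of the start (of either gene end where no start was listed) and the one with the smallest p; for the other lists, the 3 peaks with the smallest p. Some of these results are not reported here. The Celf2 start peak with an unadjusted p under 0.05, the Carm1 peak and the peaks at the margin were added after their values were seen, as were the further genes of the target list given with counts. The members and lists were chosen with earlier results of these data known. Alternatives were RLE and total-count scaling, a minimum mean of 2 CPM, no filter, DESeq2 1.42.0, limma 3.58.1 voom, a replicate block, an adjusted p under 0.1, gene bodies only, a 50 kb margin and each library left out.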

Additional observations from a re-analysis of the deposited data

How the results depend on the processing

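The 19 calls among the member peaks kept their sign in every alternative run, but their number depended on the test and on single libraries. The count of higher peaks, 16 as reported, was 27 with a replicate block, 26 at an adjusted p under 0.1 and 8 in gene bodies only, and between 1 and 36 with a library left out. The count of lower peaks, 3 as reported, was 7 with total-count scaling, 0 with DESeq2, 16 with the replicate block, 15 at an adjusted p under 0.1 and between 0 and 11 with a library left out. Among all peaks, 2683 higher and 2156 lower as reported, DESeq2 called 1365 and 1008, the replicate block 5230 and 4494, and the looser threshold 4824 and 4127, with ranges of 642 to 4307 and 364 to 4132 over the left-out libraries. The replicate numbers did not pair the libraries by the rule used (correlation of the differences between replicates 1 and 2 across genotypes 0.107, with 2 pairs), so the block is no test of pairing.

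Among locus sums, Mbnl2 passed with total-count scaling (log2 fold change -0.28), DESeq2 (-0.27), the replicate block (-0.27) and the looser threshold (-0.26). With a library left out, the Rbm20 locus ranged from -0.0027 to 0.28, Celf2 from -0.042 to 0.037, Rbfox1 from -0.19 to 0.022 and Qk from 0.037 to 0.42. Uncalled peaks near 0 turned sign with a library left out: the Qk start peak ranged from -0.19 to 0.20 (and was -0.015 with total-count scaling), the highest Qk peak from -0.075 to 0.034, the Celf2 peak at chr2:7080666-7081785 from -0.22 to 0.32, the Mbnl1 start peak from -0.071 to 0.14, the Rbfox1 start peak from -0.39 to 0.27 and the Rbfox2 gene-end peak from -0.037 to 0.0094. The causes were not tested. RLE scaling kept all 19 calls, total counts and the minimum of 2 CPM 17 each, limma voom 16 and DESeq2 12. The alternative with no filter was the same fit, since the filter removed nothing. With 2 libraries a genotype, moderate differences at weak peaks may be missed.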
